A study of Bos taurus with 35 samples.

Results

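Small nucleolar RNA (snoRNA) genes were described in beef *longissimus thoracis* (*LT*) muscle over time *post-mortem*. The set held 42 genes of the 27607 in the count table: every gene with the biotype snoRNA in the study's lists of differentially expressed (DE) genes, apart from U3. A gene entered those lists by differing from 0 h at one or more later time points, so that the members were chosen by their measured contrasts with 0 h. All fold changes against 0 h are therefore given as a description with no test, and the members are not all snoRNA genes of cattle. The copy of the lists used here was incomplete for genes downregulated at 72 h, and snoRNA genes lowered only then may be missing. By symbol, 11 members were H/ACA box genes (SNORA), 16 were C/D box genes (SNORD), 1 was U8, and 14 had an Ensembl identifier without a symbol. U8 is itself a C/D box snoRNA, but its symbol does not carry SNORD, so it was kept apart from the 16.

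The samples were muscle cores from the left-side carcasses of 7 British × Continental crossbred heifers kept under refrigeration. Each animal was sampled at 0 h (shortly after slaughter), 6, 24, 48 and 72 h, which gave 35 RNA-Seq libraries, 7 per time point, with every animal present at every time point. The labels name no treatment, genotype or age, and the animals are numbered 101, 103, 104, 107, 201, 202 and 206 as in the labels. Animals were not pooled, and the 0 h sample of the same carcass was the control.

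Small nucleolar RNAs guide the chemical modification of ribosomal RNA in the nucleolus. C/D box snoRNAs pair with ribosomal RNA and direct fibrillarin to methylate a ribose, whereas H/ACA box snoRNAs direct dyskerin to convert a uridine to pseudouridine. U8 and SNORD14 also take part in the processing of precursor ribosomal RNA. In mammals most snoRNAs lie in introns of host genes, many of which encode ribosomal proteins or translation factors, and are cut out of the intron after splicing. Mature snoRNAs carry no poly(A) tail, and the labels name an mRNA library protocol. Reads of a mature snoRNA and of an unspliced host transcript that covers it cannot be told apart in gene counts.

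The libraries held 20568418 to 104275821 counted reads, with a median of 40133660. The 42 genes together held 232 to 2848 reads per library, so that most single values rest on few reads. At 0 h the median number of reads per library was under 10 for 15 of the 42 genes, and its highest value for any gene was 68. Only 4 of the 1470 values were 0. The skeletal muscle markers that could be named (CKM, TNNT3 and MYLPF, 3 of a list of 10) had a summed level of 27575 to 68063 counts per 1000000 counted reads (CPM) over the 35 libraries. CPM were scaled by TMM normalisation factors and not divided by gene length, so that levels are compared over time and between animals but not between genes.

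A gene was called upregulated or downregulated where its fold change exceeded 1.5 with a false discovery rate (FDR) under 0.05. At 6 h 9 of the 42 genes (21.4%) were called upregulated, beside 0.349% of the 14630 genes tested. At 24 h 18 (42.9%) were called upregulated, beside 0.725% of all genes. At 48 h there were 25 (59.5%), beside 2.96%, and at 72 h there were 34 (81%), beside 9.8%. Since membership required such a call, these shares carry no information beyond the order in which the genes were called. Downregulated members numbered 1 at 48 h, beside 6.3% of all genes, and 3 at 72 h, beside 15.4%. The early numbers depended on single animals. The 9 genes of 6 h became 3 without animal 101 and 4 without animal 107. The 18 of 24 h became 10 without either one of these, and 15 at most without any other animal.

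The median log2 fold change of the 42 genes against 0 h over the later times was 0.50, then 0.73 (24 h), 0.77 and finally 0.87 (72 h). The median of all genes tested was 0.01 at 72 h and closer to 0 at the earlier times. The set median at 24 h was thus near that of 72 h, but the genes did not all follow it. Those called at 72 h only (11 genes) had a median of 0.22 at 24 h and 0.82 at 72 h. The 5 called from 24 h on had 0.98 and 0.84. These groups were formed by the calls themselves. The estimate was positive for 37 genes at 6 h and, over the next 3 times, for 40, 39 and 38. CPM was higher than at 0 h in all 7 animals for 9 of the 42 genes at 6 h, beside 4.16% of all genes, and for 15 at 24 h, beside 7.36%. That number was again 15 at 48 h, beside 15%, and 15 at 72 h, beside 21.3%. The mean level was lowest at 0 h for 37 genes and highest at 72 h for 24, while 7 peaked at 48 h and 10 at 24 h. U8 had its highest mean at 0 h.

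**Figure D1:**
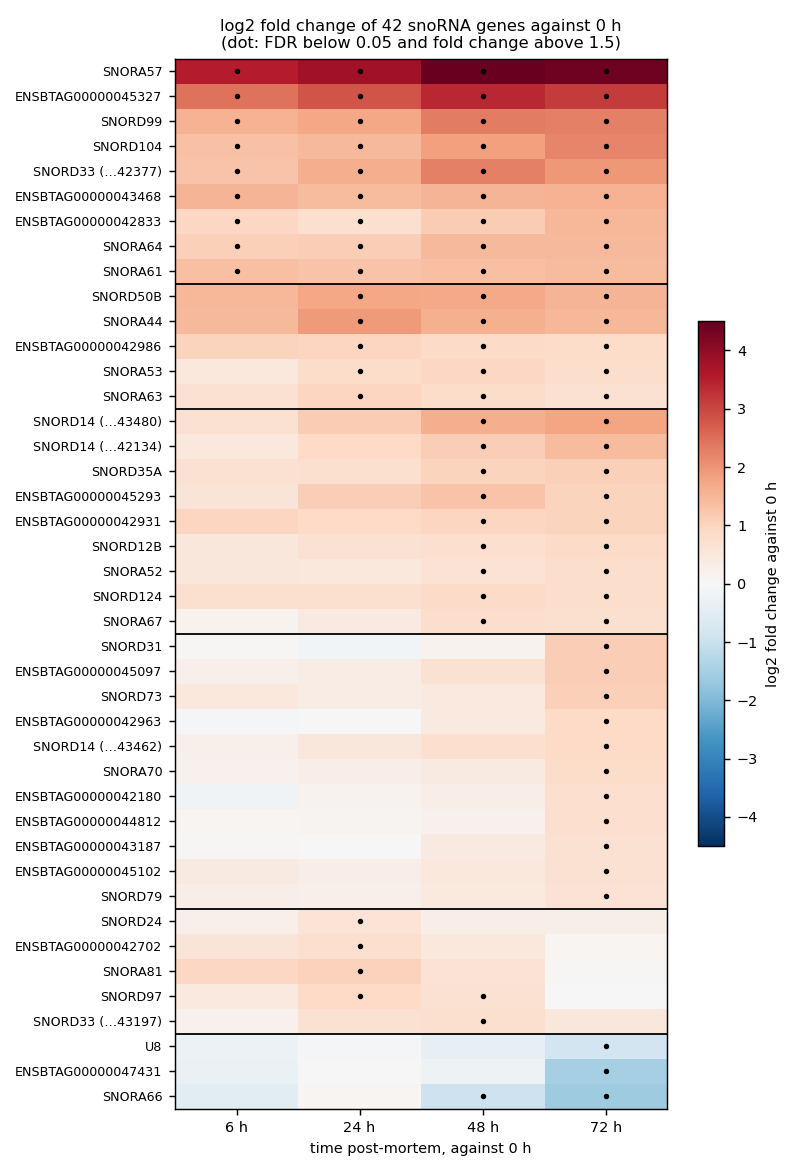
The log2 fold change against 0 h of the 42 snoRNA genes (one line each) at 6, 24, 48 and 72 h *post-mortem*, with red for higher and blue for lower than at 0 h. Black dots mark calls (fold change over 1.5 with an FDR under 0.05), and lines separate the genes by the time points of their calls. The 9 genes in the uppermost block were called upregulated at all 4 later times and the 3 in the lowest block were called downregulated.

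The differences between neighbouring times were smaller than those against 0 h, and share samples with the contrasts that chose the members. From 6 to 24 h, 30 genes had a positive estimate, with a median log2 difference of 0.18. From 24 to 48 h, 31 were positive, with a median of 0.14. From 48 to 72 h, 21 of 42 were positive, with a median of 0.02. Genes past the same thresholds between neighbouring times were SNORA66, lower by -1.01 ± 0.37 (log2, SE) at 48 h than at 24 h (1.88% of all genes were lower in that step), and 3 genes from 48 to 72 h. SNORD31 was higher by 0.95 ± 0.32 in the last step, beside 0.786% of all genes. SNORD97 (-0.72 ± 0.25) and ENSBTAG00000047431 (-1.27 ± 0.32) were lower in that step, beside 3.73% of all genes.

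Of the 11 H/ACA genes, 3, 7, 8 and 9 were called upregulated over the later times in order, with a median log2 fold change of 0.68, 0.97, 0.81 and 0.80. SNORA57, which in human lies in an intron of MTA2, had the highest fold changes of the 42 genes. At 0 h its CPM was 0 in animal 206, 0.0432 at the median and 0.194 in animal 103, from 18 reads in all 7 libraries together. At 6 h it ranged from 0.0936 to 1.18 with a median of 0.815, and at 24 h from 0.112 to 1.44 with a median of 0.547. The 48 h libraries ranged from 0.377 to 1.75 (median 1.36) and lay above all 0 h libraries. At 72 h the range was 0.162 to 2.33 (median 1.16), from 466 reads, and animal 202 alone fell within the 0 h range. The log2 fold change was 3.55 ± 0.63 (SE), 3.79 ± 0.62, 4.45 ± 0.62 and 4.39 ± 0.62 over the later times. SNORA57 was higher than at 0 h in 7 of 7 animals each time. In animal 202, however, it had 2 reads at 6 h as at 0 h, with 0.0936 CPM beside 0.0920. With so few reads at 0 h the size of the fold is imprecise.

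SNORA64 and SNORA61, whose human hosts are RPS2 and the non-coding gene SNHG12, were called upregulated at all 4 later times. SNORA64 had a CPM of 0.173 to 0.468 (median 0.277) at 0 h, 0.291 to 1.55 (0.458) at 6 h, 0.232 to 1.01 (0.547) at 24 h, 0.305 to 1.35 (0.816) at 48 h and 0.433 to 1.57 (0.711) at 72 h. The ranges overlapped at every time, although 7 of 7 animals were higher at 48 and 72 h than at 0 h, and the log2 fold change at 72 h was 1.45 ± 0.29. SNORA61 had a CPM of 0.144 to 0.46 (median 0.285) at 0 h, 0.23 to 1.06 (0.749) at 6 h, 0.413 to 0.952 (0.657) at 24 h, 0.322 to 1.15 (0.748) at 48 h and 0.437 to 1.32 (0.641) at 72 h. Its log2 fold change was 1.35 ± 0.27 at 6 h and 1.42 ± 0.27 at 72 h, a difference reached in full by 6 h.

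SNORA44, SNORA53 and SNORA63 were called from 24 h on, SNORA52 and SNORA67 from 48 h on, SNORA70 at 72 h only and SNORA81 at 24 h only. SNORA44, another gene of the human SNHG12 locus, had a log2 fold change of 1.46 ± 0.43 at 6 h and 1.91 ± 0.42 at 24 h, and its 24 h libraries (0.262 to 0.76 CPM) all lay above the 0 h libraries (0 to 0.225). Ranges of 4 members did not overlap at 24 h with all later values higher, beside 0.253% of all genes. SNORA63 and SNORA81, both hosted by the translation initiation factor gene EIF4A2 in human, had similar estimates at 24 h (0.97 ± 0.28 and 1.05 ± 0.32). At 72 h they stood at 0.69 ± 0.29 and 0.05 ± 0.36. The SNORA63 and SNORA70 values at 72 h did not pass the thresholds when single animals were left out, any one of 104, 201, 202 and 206 for SNORA63 and any one of 101, 107 and 201 for SNORA70.

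Of the 16 C/D genes, those called upregulated over the later times in order numbered 3, 6, 11 and 13, with a median log2 fold change of 0.49, 0.73, 0.81 and 1.08. Of these, SNORD99 and SNORD104 alone had 72 h libraries that all lay above those of 0 h. SNORD99, in the human SNHG12 locus beside SNORA61 and SNORA44, had a CPM of 0.0428 to 0.217 (median 0.166) at 0 h. It reached 0.138 to 0.679 (0.358) at 6 h, 0.258 to 0.729 (0.475) at 24 h, 0.393 to 1.02 (0.698) at 48 h and 0.439 to 1.21 (0.586) at 72 h. From 24 h on, no library overlapped with those of 0 h. The log2 fold change was 1.56 ± 0.32, 1.74 ± 0.31, 2.29 ± 0.31 and 2.28 ± 0.31 at the 4 later times.

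SNORD104, hosted by SNHG25 in human, had a CPM of 0.171 to 0.444 (median 0.341) at 0 h, 0.187 to 1.13 (0.753) at 6 h and 0.465 to 1.1 (0.784) at 24 h. It reached 0.572 to 2.15 (0.804) at 48 h and 0.582 to 2.67 (1.24) at 72 h, again without overlap with 0 h from 24 h on. Its log2 fold change increased at each time, from 1.30 ± 0.28 at 6 h to 1.47 ± 0.27, 1.85 ± 0.27 and 2.21 ± 0.26. SNORD99 and SNORD104 were the only 2 of the 42 members whose 72 h libraries all lay above the 0 h libraries. That is a smaller share than the 7.9% of all genes with this pattern at 72 h. At 48 h there were 5 such members (SNORA57, SNORD99, SNORD104, SNORD124 and ENSBTAG00000045327), beside 3.11% of all genes.

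**Figure D2:**
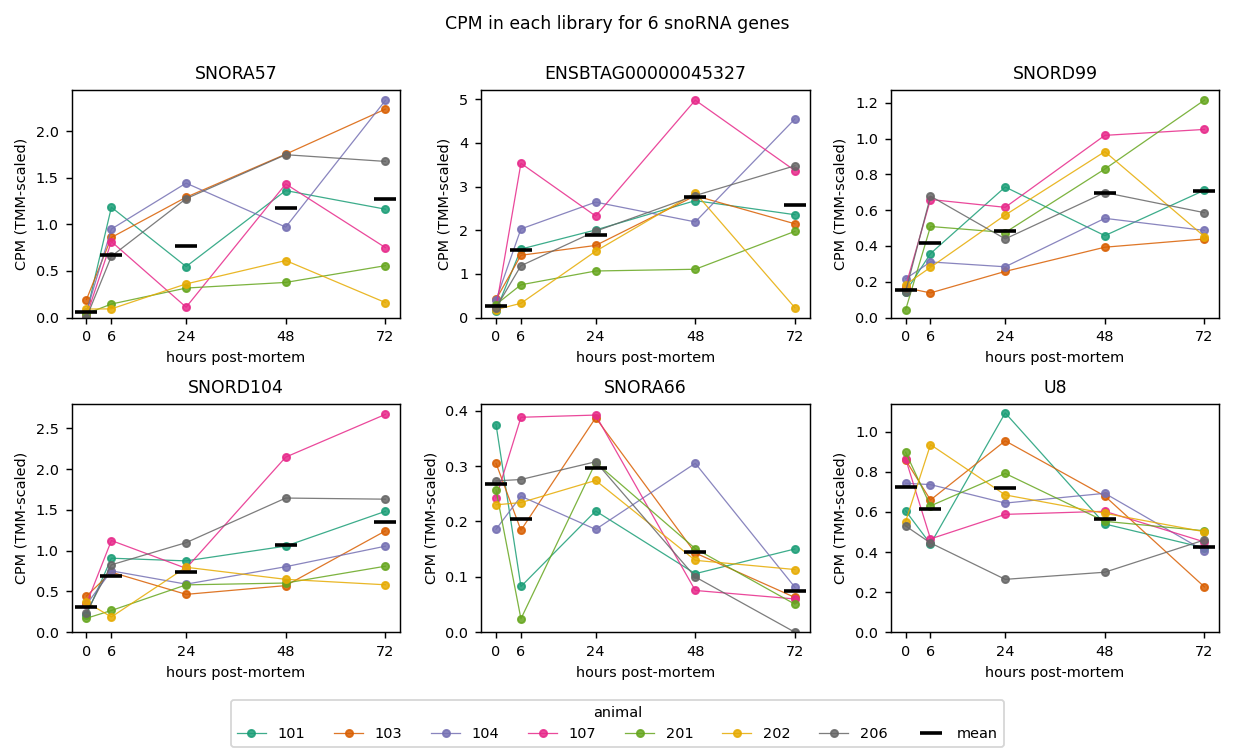
CPM (linear axis from 0) of 6 snoRNA genes in each of the 35 libraries against hours *post-mortem*, with one colour and line per animal and a black bar for the mean of 7 animals. SNORD99 and SNORD104 in all 7 animals lay above the 0 h range at 72 h, SNORA57 and ENSBTAG00000045327 did so in 6 of 7, and SNORA66 and U8 lay below it.

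The other C/D genes with calls at an increasing number of times were SNORD50B (human host SNHG5) from 24 h on, SNORD35A (RPL13A), SNORD12B (ZFAS1) and SNORD124 from 48 h on, and SNORD73 (RPS3A), SNORD79 (GAS5) and SNORD31 (SNHG1) at 72 h only. SNORD50B had a log2 fold change of 1.51 ± 0.45 at 6 h, not called, and 1.74 ± 0.44 at 24 h. SNORD31 stood at -0.13 ± 0.34 (24 h) and 0.16 ± 0.35 (48 h) before it reached 1.11 ± 0.31 at 72 h, a late difference seen in 6 of 7 animals. SNORD24, hosted by RPL7A in human, was called at 24 h only (0.62 ± 0.19) and stood at 0.26 ± 0.19 at 72 h. SNORD97, hosted by EIF4G2 in human, was called at 24 and 48 h. Its CPM was 0.23 to 1.11 (median 0.558) at 0 h, 0.539 to 1.9 (1.01) at 24 h and 0.163 to 1.05 (0.595) at 72 h, and its log2 fold change returned from 0.90 ± 0.24 at 24 h to -0.02 ± 0.26 at 72 h.

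The FDR and the fold change set the membership, and SNORD79 and its neighbours lay closest to them at 72 h. SNORD79 was just inside, at 0.65 ± 0.28, with CPM of 0.139 to 0.322 (median 0.171) at 0 h and 0.126 to 0.557 (0.33) at 72 h, higher in 5 of 7 animals. Just outside was 1 of the SNORD33 genes (ENSBTAG00000043197) at 0.51 ± 0.26, followed by SNORD24 at 0.26 ± 0.19. SNORD79 and that SNORD33 gene differed by less than their standard errors, and the call of SNORD79 was lost without any one of 5 animals.

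Among the 14 genes without a symbol, the upregulated ones over the later times in order numbered 3, 5, 6 and 12, with a median log2 fold change of 0.49, 0.54, 0.57 and 0.87. ENSBTAG00000045327 had a CPM of 0.159 to 0.416 (median 0.225) at 0 h, 0.328 to 3.53 (1.43) at 6 h, 1.07 to 2.64 (1.98) at 24 h, 1.11 to 4.98 (2.79) at 48 h and 0.226 to 4.55 (2.35) at 72 h. The 24 h and 48 h libraries all lay above the 0 h libraries, and at 72 h the library of animal 202 (0.226) alone returned to the 0 h range. Its log2 fold change was 2.45 ± 0.41, 2.84 ± 0.40, 3.40 ± 0.40 and 3.16 ± 0.40, and 7 of 7 animals were higher at each time.

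ENSBTAG00000042833 had a CPM of 0.138 to 0.61 (median 0.248) at 0 h, 0.388 to 0.783 (0.55) at 6 h, 0.382 to 0.756 (0.44) at 24 h, 0.416 to 0.93 (0.649) at 48 h and 0.469 to 1.21 (0.893) at 72 h. The ranges overlapped throughout, but 7 of 7 animals were higher at all 4 times, and the log2 fold change went from 0.93 ± 0.20 at 6 h to 1.49 ± 0.19 at 72 h. ENSBTAG00000043468 had a CPM of 0.0428 to 0.279 (median 0.112) at 0 h, 0.218 to 0.621 (0.382) at 6 h, 0.169 to 0.62 (0.31) at 24 h, 0.176 to 0.603 (0.352) at 48 h and 0.162 to 0.677 (0.456) at 72 h. It was near its 72 h level by 6 h (log2 fold change 1.54 ± 0.35, beside 1.58 ± 0.35).

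The members with the lowest mean CPM over all libraries also had no symbol. ENSBTAG00000042931 went from 0.0277 to 0.184 (median 0.101) at 0 h to 0.0628 to 0.46 (0.146) at 72 h, on 35 and 60 reads over the 7 libraries, with a log2 fold change of 0.99 ± 0.37. ENSBTAG00000045293 went from 0.0144 to 0.248 (0.0713) at 0 h to 0.0628 to 0.354 (0.251) at 72 h, on 35 and 60 reads, with 1.01 ± 0.40. Both were called at 48 and 72 h, and both calls at 72 h were lost when single animals were left out, for ENSBTAG00000045293 any one of 101, 201, 202 and 206 and for ENSBTAG00000042931 animal 206. The remaining genes without a symbol were called upregulated from 24 h on (1 gene), at 72 h only (6 genes, log2 fold changes from 0.69 to 1.09) or at 24 h only (ENSBTAG00000042702, 0.77 ± 0.20).

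The 3 downregulated members were U8, SNORA66 and ENSBTAG00000047431. U8, which is needed for the maturation of the large ribosomal subunit RNAs and has its own promoter, had a CPM of 0.53 to 0.898 (median 0.743) at 0 h and 0.226 to 0.506 (0.45) at 72 h. All 72 h libraries lay below those of 0 h, and the log2 fold change was -0.85 ± 0.20. In between it was 0.44 to 0.936 (0.63) at 6 h, 0.264 to 1.09 (0.685) at 24 h and 0.299 to 0.693 (0.593) at 48 h, and its log2 fold changes were -0.26 ± 0.19, -0.06 ± 0.19 and -0.38 ± 0.20. The median at 24 h was thus within the range of 0 h, while single libraries lay beyond that range on both sides.

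SNORA66 had a CPM of 0.186 to 0.375 (median 0.257) at 0 h, 0.0242 to 0.388 (0.234) at 6 h and 0.186 to 0.392 (0.306) at 24 h. It ranged from 0.0754 to 0.305 (0.13) at 48 h and from 0 in animal 206 to 0.15 (0.0628) at 72 h. All 72 h libraries lay below all 0 h libraries, on 33 reads against 97, and the log2 fold changes were -0.47 ± 0.34, 0.09 ± 0.31, -0.92 ± 0.37 and -1.61 ± 0.40. The 48 h call was lost without any one of animals 101, 103, 107, 202 and 206. ENSBTAG00000047431 had a CPM of 0.434 to 0.627 (median 0.485) at 0 h and 0.0837 to 0.298 (0.194) at 72 h, again with no overlap, and a log2 fold change of -1.49 ± 0.31. It was 0.0936 to 0.698 (0.475) at 6 h, 0.284 to 0.791 (0.486) at 24 h and 0.226 to 0.646 (0.388) at 48 h. It was called at 72 h only, although its 48 h median already lay below the lowest 0 h library. All 72 h libraries below all 0 h libraries was seen in 10.1% of all genes.

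SNORD14 and SNORD33 were each present under several identifiers. SNORD14, a C/D snoRNA that pairs with the small subunit RNA, is hosted by RPS13 and HSPA8 in human and was counted under 3 identifiers. Their CPM correlated over the 35 libraries with Pearson's r of 0.94 to 0.97 (Spearman's rho 0.91 to 0.95). This is a description, since the libraries share animals and near-identical copies can share reads, and counts of the single copies are uncertain. ENSBTAG00000042134 had a CPM of 0.556 to 3.74 (median 1.48) at 0 h and 0.404 to 11.4 (2.1) at 72 h, with a log2 fold change of 1.42 ± 0.39. ENSBTAG00000043480 went from 0.328 to 3.77 (0.929) to 0.307 to 11.9 (1.62), with 1.79 ± 0.44, and ENSBTAG00000043462 from 0.727 to 5.41 (1.8) to 0.582 to 10 (2.2), with 0.88 ± 0.33. The ranges overlapped widely, and the last of the 3 was higher in only 4 of 7 animals. Its call was lost without animal 104 (0.43) or 206 (0.69).

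Summed over the 3 identifiers, SNORD14 had 1.61 to 12.9 CPM (median 4.27) at 0 h, 1.31 to 13.9 (4.64) at 6 h, 3.61 to 15.8 (5.54) at 24 h, 3.24 to 23.6 (10.7) at 48 h and 1.29 to 33.4 (5.74) at 72 h. The 72 h median was thus close to that of 24 h, while the mean (12.5 ± 11.7 SD) was raised by animals 104 (33.4), 206 (19.8) and 103 (18.0). The other 4 animals stood at 1.29 to 5.74 CPM. SNORD14 made up 9.55 to 59.7% of the CPM in the 42 genes at 72 h and 15.4 to 51.4% at 0 h.

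The SNORD33 genes differed more from each other, with r of 0.54 and rho of 0.62 over the 35 libraries. ENSBTAG00000042377 had a CPM of 0.0277 to 0.23 (median 0.193) at 0 h, 0.169 to 0.488 (0.281) at 6 h, 0.206 to 0.572 (0.448) at 24 h, 0.179 to 0.798 (0.654) at 48 h and 0.176 to 0.921 (0.631) at 72 h, and log2 fold changes against 0 h of 1.30 ± 0.34, 1.64 ± 0.32, 2.25 ± 0.32 and 1.96 ± 0.32. It was called at all 4 times. ENSBTAG00000043197 had 0.217 to 0.416 (0.242) at 0 h, 0.14 to 0.55 (0.327) at 6 h, 0.286 to 0.659 (0.511) at 24 h, 0.226 to 0.649 (0.481) at 48 h and 0.146 to 0.621 (0.502) at 72 h, and was called at 48 h only (0.70 ± 0.26). Whether the copies differ was not tested.

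The share of each library in the 42 genes sums the counts whose contrasts with 0 h chose the members. A higher share at later times thus follows in part from that choice, and is given as a description and not as support. At 0 h the share was 15.7 ± 4.73 reads per 1000000 counted reads (SD, n = 7). Over the later times it was 23.9 ± 8.11, then 27.3 ± 5.35 (24 h), 30.3 ± 9.90 (48 h) and 31.5 ± 12.8. Each of these later means was above 0 h, by a ratio of 1.52 (6 h), 1.73 (24 h) and 1.93 (48 h), and the share was higher than at 0 h in 7 of 7 animals at each time. The ranges overlapped at every time, with 10.9 to 25.1 at 0 h and 11.8 (animal 202) to 49.7 (animal 104) at 72 h. Without the SNORD14 genes the share was 10.8 ± 1.91 at 0 h, and over the later times 17.3 ± 4.77, then 19.7 ± 3.72 (24 h), 20.5 ± 5.29 and 19.98 ± 5.52 (72 h). Per counted read it thus changed little after 24 h, and the further increase of the full sum came from SNORD14. With TMM scaling the full sum was 26.2 ± 5.25 CPM at 24 h and 34.1 ± 13.7 at 72 h. SNORD14 made up 7.34 ± 4.28 and 12.5 ± 11.7 of these, so the mean of the other genes was also higher at 72 h on that scale.

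**Figure D3:**
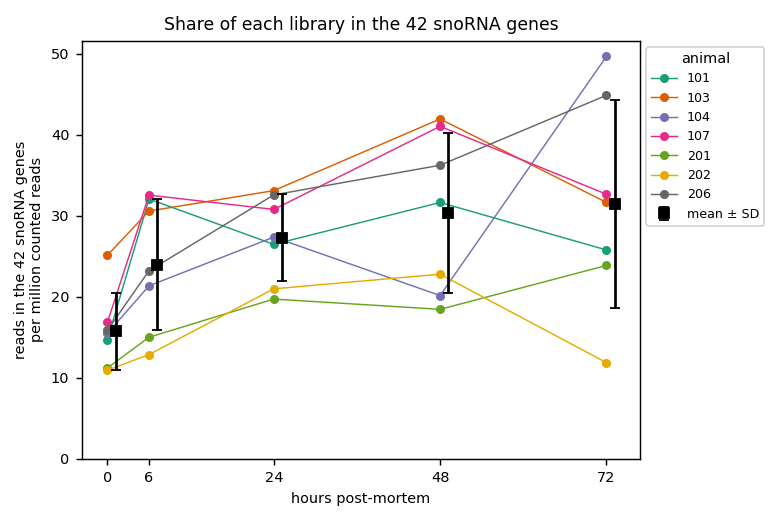
Reads in the 42 snoRNA genes per 1000000 counted reads against hours *post-mortem*, one line per animal, with black squares and bars for the mean ± SD of 7 animals. The mean went from 15.7 at 0 h to 31.5 at 72 h, and animal 202 (11.8) was the lowest and animal 104 (49.7) the highest at 72 h.

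The difference between animals was not one of the contrasts that chose the members. The test of it shares its estimate of dispersion with those contrasts, and whether the choice of members bears on it was not tested. By edgeR's quasi-likelihood F test of the animal terms with Benjamini-Hochberg adjustment over 14630 genes, 26 of the 42 genes (61.9%) differed between the 7 animals, beside 82.5% of all genes. Among the 4393 genes with a mean CPM within the range of the members (0.171 to 2.93), 69.5% passed, and the share of the members lay nearer to that. The upper end of this range was set by a SNORD14 gene and most members lay far below it, so these genes are not matched to the members by level. The range between the highest and lowest animal had a median of 1.19 on the log2 scale, beside 0.55 over all genes and 0.88 over these 4393 genes. By class, 7 of 11 H/ACA genes, 10 of 16 C/D genes and 9 of 14 genes without a symbol differed, and U8 did not pass the test (FDR 0.198).

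SNORD14 showed the widest range between animals. For ENSBTAG00000042134, the mean over the 5 times was 5.69 CPM in animal 103, 3.53 in 104, 3.40 in 206, 2.36 in 101, 1.92 in 107, 1.12 in 201 and 0.665 in 202. This fitted range of 3.07 on the log2 scale had an FDR of 4.8e-05 in edgeR, and the other SNORD14 genes had ranges of 2.46 (FDR 3.3e-05) and 3.05 (FDR 0.00020) with the same animals highest and lowest. The summed SNORD14 level of animal 103 (12.9 to 23.6 CPM) did not overlap with that of animal 107 (2.60 to 10.7), 201 (1.61 to 5.18) or 202 (1.29 to 3.61) at any time. SNORA57 had its animals in the same order, from 1.27 CPM in animal 103 to 0.264 in animal 202, a log2 range of 2.22 (FDR 5.8e-05). In 7 of the 42 genes animal 103 had the highest fitted level, namely the SNORD14 genes, SNORA57, ENSBTAG00000042702, ENSBTAG00000042833 and ENSBTAG00000045097, and in each of these animal 202 had the lowest.

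**Figure D4:**
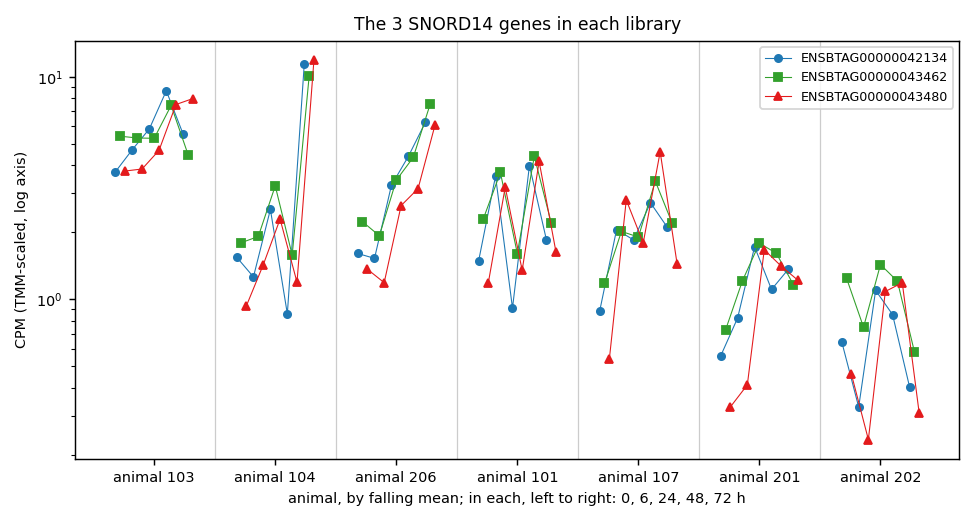
CPM of the 3 SNORD14 genes (log axis) in each library, with animals ordered by falling mean and, within each animal, the 5 times from left to right. Animal 103 stood at 3.74 CPM or more at all 5 times for all 3 genes, and animal 202 at 1.43 or less.

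Animal 103 stood at the other end in further members. It had the lowest mean of SNORD33 (ENSBTAG00000042377), 0.151 CPM against 0.594 in animal 206 (log2 range 1.91, FDR 0.00064), and of ENSBTAG00000042986, 0.0744 against 0.294 in animal 202 (1.93, FDR 0.00033). SNORA64 was low in animals 103 (0.377 CPM) and 104 (0.375) and highest in animal 107 (1.07), with a log2 range of 1.46 (FDR 0.0014). SNORD104 (1.42, FDR 0.00065) and SNORD97 (1.66, FDR 0.00021) were highest in animal 107 and lowest in animal 201. Over the 42 genes, the fitted level was highest in animal 107 for 22, and lowest in animal 202 for 16 and in animal 103 for 13. At 72 h animal 202 had the lowest CPM of the 7 animals in 17 of the 42 genes and the highest in none. Of the 26 genes, 11 passed in every fit that left out 1 animal, and the number that passed went down to 19 without animal 103 and without animal 107.

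Host genes could be named only where they were themselves in the DE lists, 7 of the 21 genes known to host these snoRNAs in human, so their calls are given as values and not as support. All 7 were called at 72 h only. The ribosomal protein genes RPL13A (0.75 ± 0.05), RPLP2 (0.83 ± 0.06), RPS13 (0.71 ± 0.05), RPL7A (0.67 ± 0.06), RPL5 (0.66 ± 0.05) and RPS3A (0.63 ± 0.05) were called upregulated then. The translation factor gene EIF4G2 was called downregulated (-0.72 ± 0.11). At 6 h these 7 genes stood between -0.04 and 0.25.

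Set beside their hosts, the snoRNA genes fell into different patterns. SNORD33 (ENSBTAG00000042377) stood at 1.30 ± 0.34 and SNORD35A at 0.70 ± 0.28 at 6 h, when RPL13A stood at 0.19 ± 0.05. The other SNORD33 gene (ENSBTAG00000043197) was level with RPL13A at 6 h (0.20 ± 0.27) and below it at 72 h (0.51 ± 0.26 beside 0.75 ± 0.05), and which of the copies lies in RPL13A in cattle was not determined. SNORD73 (1.08 ± 0.29) stood above RPS3A (0.63 ± 0.05) at 72 h. SNORA52 (0.80 ± 0.21) was level with RPLP2 (0.83 ± 0.06) then. SNORD24 peaked at 24 h (0.62 ± 0.19) when RPL7A stood at 0.16 ± 0.06, and was below RPL7A at 72 h. SNORA66 went in the opposite direction to RPL5 at 72 h (-1.61 ± 0.40 and 0.66 ± 0.05). SNORD97 was at 0.90 ± 0.24 at 24 h, when EIF4G2 stood at -0.13 ± 0.11. These differences were not tested, and the hosts are those of the human genes, as the position of the cattle genes was not used here.

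**Figure D5:**
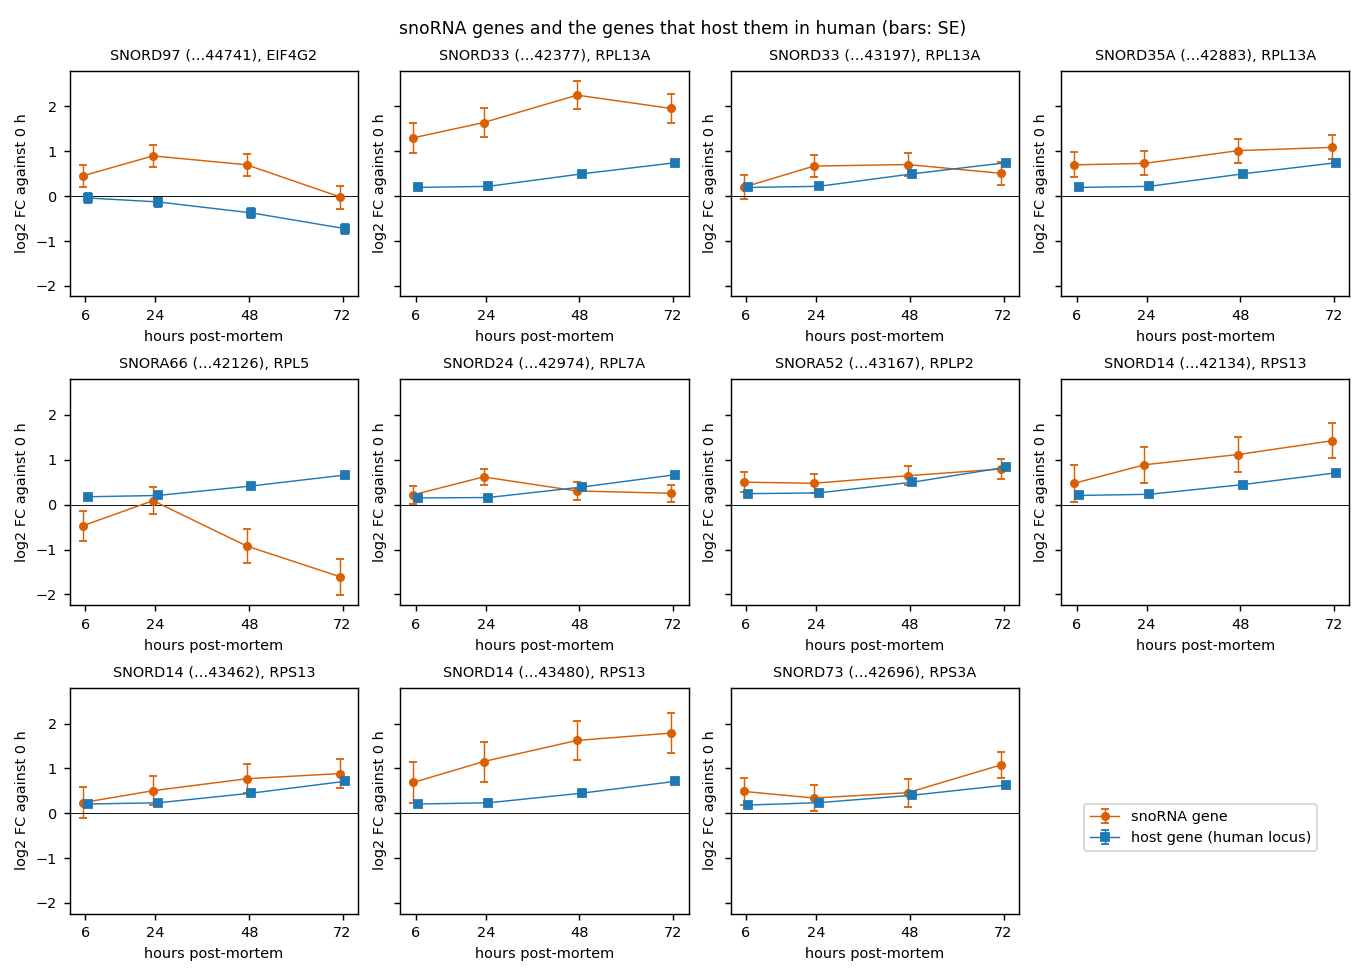
The log2 fold change against 0 h (± SE) of 11 snoRNA genes (circles) and of the genes that host them in human (squares) at 6, 24, 48 and 72 h. SNORA66 (-1.61) and RPL5 (0.66) stood on opposite sides of 0 at 72 h, and SNORD97 lay above EIF4G2 at every time.

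Genes of the snoRNA machinery were named in the same restricted way. Of 8 core proteins of the C/D and H/ACA particles, the H/ACA protein gene NHP2 was named, with 22.4 CPM at 0 h and 36.4 at 72 h (0.70 ± 0.06). Of 12 genes for the processing, transport and decay of RNA, EXOSC4, a subunit of the RNA exosome, was called upregulated at 72 h (0.66 ± 0.07). The cytoplasmic mRNA exonuclease gene XRN1 (-1.48 ± 0.13), the poly(A) polymerase gene TENT4B (-1.09 ± 0.14) and the exosome helicase gene MTREX (-0.80 ± 0.08) were called downregulated then. Of 10 nucleolar genes, POLR1D (0.65 ± 0.07), a subunit of RNA polymerase I, and TAF1D (0.66 ± 0.07), a factor of its initiation complex, were called upregulated at 72 h. None of 13 assembly factors was named.

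Markers of skeletal muscle and of other cell types could be named only where they were themselves in the DE lists. Each named marker was thus sure to have a call at some time, so the calls are given as values and not as support. Markers outside the lists could not be described. The part of any marker in the values of the snoRNA genes was not tested. Of the skeletal muscle markers, TNNT3 was called upregulated at 48 h, and all 3 that were named were called upregulated at 72 h, namely CKM (0.63 ± 0.06), TNNT3 (0.96 ± 0.09) and MYLPF (0.73 ± 0.08). Their summed level was 27575 to 33270 CPM at 0 h and 45174 to 68063 at 72 h, without overlap. All 5 of 5 adipocyte markers (ADIPOQ, LEP, PLIN1, CIDEC and FABP4) were called downregulated from 24 h on, with a summed level of 27.0 to 254 CPM at 0 h and 6.03 to 8.71 at 72 h. The summed level of 2 of 3 macrophage markers (CD163 and CSF1R) was 13.0 to 52.1 CPM at 0 h and 2.59 to 19.0 at 72 h, and both were called downregulated at 48 and 72 h. That of 3 of 4 T and NK cell markers (CD3E, CD2 and KLRD1) was 3.31 to 6.97 at 0 h and 7.001 to 9.55 at 72 h, with 2 called upregulated at 48 h and 3 at 72 h. The erythroid markers HBB and HBA summed to 0.052 to 3.59 at 0 h and 0.126 to 72.1 at 48 h, where both were called upregulated. None of 3 endothelial markers could be named. No named marker was at 0 in all 7 libraries of a time point, although 1 or 2 of the adipocyte markers were at 0 in some libraries from 24 h on. Lower levels from fewer cells of a type and from less RNA per cell cannot be told apart in such samples.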

How the data were processed

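The data were the raw counts that the authors deposited: whole numbers of reads per gene for 35 samples, neither normalised nor filtered. According to the submitters' notes and the methods, reads were trimmed with Trimmomatic (version 0.39), mapped with STAR (version 2.7.0f) to ARS-UCD1.2 and counted per gene with featureCounts (version 1.6.4). The protocol was a stranded mRNA preparation. The methods call the counting strand-specific, although the options they print are those of unstranded counting. The counts used here were labelled as those of the reverse strand. Their library totals match the range that the paper gives for reads assigned to the sense strand, so they were read as counts of a single strand.

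Symbols and biotypes came from the study's lists of DE genes, since the count table gives identifiers alone. Other snoRNA genes, and host and marker genes outside those lists, could therefore not be named, and the planned count over other snoRNA genes was not made. The members and all gene lists were chosen with earlier results of these data known. Member sequences and positions were not used here. U3 is not reported here.

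Genes were kept by filterByExpr (14630 of 27607), and all 42 members passed, as the lists held tested genes only. TMM factors ranged from 0.846 to 1.11. All 35 samples entered 1 negative binomial model of time point and animal (the block) in edgeR (version 4.0.16, R 4.3.3), with the quasi-likelihood test and Benjamini-Hochberg adjustment. A call needed a fold change over 1.5 and an FDR under 0.05. The difference between animals was tested on the 6 animal terms. Wald standard errors were scaled by the quasi-likelihood variance. The fit was tested on simulated data. The smallest library held 20568418 reads, and precision is limited by the few reads per member.

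Samples were paired by the animal named in the labels. Residuals about the time point means had a median correlation of 0.58 between libraries of one animal (70 pairs, 0.29 to 0.77) and of -0.12 between libraries of different animals (525 pairs).

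Full values are given for members called upregulated at all 4 later times, for downregulated members, for symbols with several identifiers, for members nearest to the thresholds and for the 2 with the highest and lowest mean level. Others are summarised, and single ones of these were named after their values were seen. Alternatives were other normalisation factors and filters, no block, DESeq2 (version 1.42.0), limma voom (version 3.58.1), other thresholds, thinning of counts and leaving out each animal.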

Additional observations from a re-analysis of the deposited data

Results flagged for a closer look

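In groups of 7 libraries, the value furthest from the others was compared with Dixon's 95% critical value. This was done for the 20 members chosen for values by time point and for the share of counts in the 42 genes, at 5 times each. Of 105 such groups 13 held a library that stood apart. Chance gives about 1 in 20 where values follow a normal distribution. Many of these CPM rest on few reads, so the rate by chance is not known here. The animal 103 library at 0 h was high for all 3 SNORD14 genes, at 3.74 (ENSBTAG00000042134), 5.41 (ENSBTAG00000043462) and 3.77 CPM (ENSBTAG00000043480), and for the share of the 42 genes, at 25.1 reads per 1000000 counted reads. These 4 values are not independent, since SNORD14 made up 51.4% of the CPM of the 42 genes in that library. Animal 103 was also low for SNORD33 (ENSBTAG00000042377) at 48 h, at 0.179 CPM, and for U8 at 72 h, at 0.226 CPM. Animal 206 was low for U8 at 48 h (0.299 CPM) and high for SNORD79 at 6 h (0.424 CPM), ENSBTAG00000045293 at 48 h (0.499 CPM) and SNORD24 at 72 h (0.921 CPM). The remaining values were SNORA66 in animal 104 at 48 h (0.305 CPM, high), SNORD99 in animal 201 at 0 h (0.0428 CPM, low) and SNORA64 in animal 107 at 6 h (1.55 CPM, high).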

How the results depend on the processing

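With RLE or upper quartile factors, DESeq2 or no fold change threshold, all 42 genes stayed on their side of the threshold at 72 h. No setting reversed the direction of a member called at 72 h. Voom lost 2 calls. Upregulated members numbered 9, 18, 25 and 34 at 6, 24, 48 and 72 h. A filter of 1 CPM in 7 samples, which left 9 members tested, gave 4, 6, 8 and 7, and glmTreat against a fold change of 1.5 gave 2, 6, 6 and 12. Counts thinned to the smallest library, which left 26 members tested, gave 5, 11, 16 and 17. With no replicate block, which ignores the pairing by animal, the first 3 of these counts were 2, 5 and 15. The 1 downregulated member of 48 h became 0 with no filter, with the 1 CPM filter, with no replicate block, with glmTreat and with thinning, and the 3 of 72 h became 0 with the 1 CPM filter and 1 with thinning. The 1 CPM filter left no downregulated member tested, and none of the 9 it tested changed its call at 72 h. All of these 9 differed between animals, in place of 26 of the 42. Under glmTreat 3 host genes were upregulated in place of 6, and 0 downregulated in place of 1. Without 1 animal, upregulated members numbered 3 to 10 at 6 h, 10 to 15 at 24 h, 19 to 24 at 48 h and 25 to 35 at 72 h. Downregulated members numbered 0 to 1 at 48 h and 3 at 72 h, members differing between animals 19 to 26, and downregulated host genes 0 to 1 (0 without animal 206). Of the 37 members called at 72 h, 24 stayed called in every fit that left out 1 animal and tested them, and 7 calls were lost with no replicate block. The causes of these changes were not tested beyond the smaller number of genes, reads or samples that a setting leaves. Depth limits all of these counts, since 15 members had a median under 10 reads at 0 h.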
